A study of Homo sapiens with 6 samples.

Results

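Eph receptors and ephrins were examined in SW480, an established human colon cancer cell line, after knockdown of ALDH1B1, a mitochondrial aldehyde dehydrogenase. The genes were taken by symbol from the deposited expression table, which held all 10 of those listed (EPHA1, EPHA2, EPHA4, EPHB2, EPHB3, EPHB4, EFNA1, EFNA4, EFNB1 and EFNB2) among 22258 symbols. RNA was sequenced from 3 samples with the genotype label ALDH1B1 KD and from 3 control samples, whose titles begin with SCR and whose genotype label is WT. Both groups are SW480 cells with the treatment label none, and each has replicates numbered 4, 5 and 6. How the knockdown was made, and whether replicates were separate cultures or a single clone, is not given in the sources used here, so a p-value here reflects only how far these samples vary, and that variation may be technical.

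Eph proteins are receptor tyrosine kinases of the cell surface, and ephrins are their membrane-bound ligands, so the pair signals at contacts between neighbouring cells. A-class ephrins are held by a lipid anchor and B-class ephrins span the membrane. Signals run forward into the receptor cell and in reverse into the ephrin cell. In the intestinal crypt, EphB2 and EphB3 are made under Wnt control in the lower crypt and keep cells in place against ephrin-B cells above, and loss of EphB receptors is known from the progression of colorectal tumours.

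Sequencing depth ran from about 20360000 to 28590000 reads, of which 65.1% to 71.1% fell in genes of the table. Levels are in RPM, the reads of a gene divided by that depth and multiplied by 1e+06. Control replicate 6 had the lowest share in listed genes and the lowest control level for 69.1% of tested genes, among them 9 of the 10 members (all but EFNA4). ALDH1B1 fell in the knockdown, with a log2 fold change of -0.80 (SE 0.0925, limma adjusted p = 2.41e-07) and no overlap between groups. Of 12 colon epithelial markers, 9 were matched by symbol, with keratins KRT8, KRT18 and KRT19 at 786 to 2702 RPM in the control, while the group means of KRT20, GPA33 and LGALS4 were at most 0.182 RPM. In the same list VIL1 rose by 1.90 on the log2 scale and EPCAM by 0.90, CDX2 fell by 0.76, and the keratins did not pass. Of 8 endothelial markers, which matter here because EPHB4 and EFNB2 are known from vessels, 3 were matched, and their summed level was 1.78 to 1.94 RPM in control and 1.57 to 1.72 RPM in knockdown samples. Matched fibroblast markers, 3 of 8, summed to 4.18 to 5.74 RPM in control and 5.37 to 7.03 RPM in knockdown samples, and matched leukocyte markers, 6 of 8, to 2.48 to 3.62 and 3.28 to 3.73 RPM. In the leukocyte list CD68, which passed the filter through the control group, fell by 1.93 on the log2 scale. CD68 had 83 reads over the control and 21 over the knockdown samples, and HLA-DRA, which did not pass the filter, 11 and 77. Neuronal markers, 5 of 8 matched, summed to 78.3 to 87.9 RPM in control and 64.3 to 67.8 RPM in knockdown samples, most of it TUBB3. Within that list SYP rose by 1.27 on the log2 scale, TUBB3 fell by 0.39, and MAP2, which did not pass the filter, had 52 reads over the control and 5 over the knockdown samples. The part of these markers in the results was not tested.

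In the knockdown 3 members rose (EPHA1, EPHB3 and EFNA1), 1 fell (EFNB2), and 6 did not pass the test. All 10 members passed the filter on low values, a mean of at least 0.694 RPM over the 6 samples. The 4 called members are 40.0% of 10, against 41.9% of the 15475 genes tested (22.7% rose and 19.2% fell), so the share called was near that of all genes. The median log2 fold change was 0.08 over the members and 0 over all genes tested. The groups did not overlap for 3 members, all higher in the knockdown, against 51.1% of all genes tested (26.5% higher and 24.6% lower). As these are bulk samples, fewer cells making a transcript and less of it per cell cannot be told apart.

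**Figure D1:**
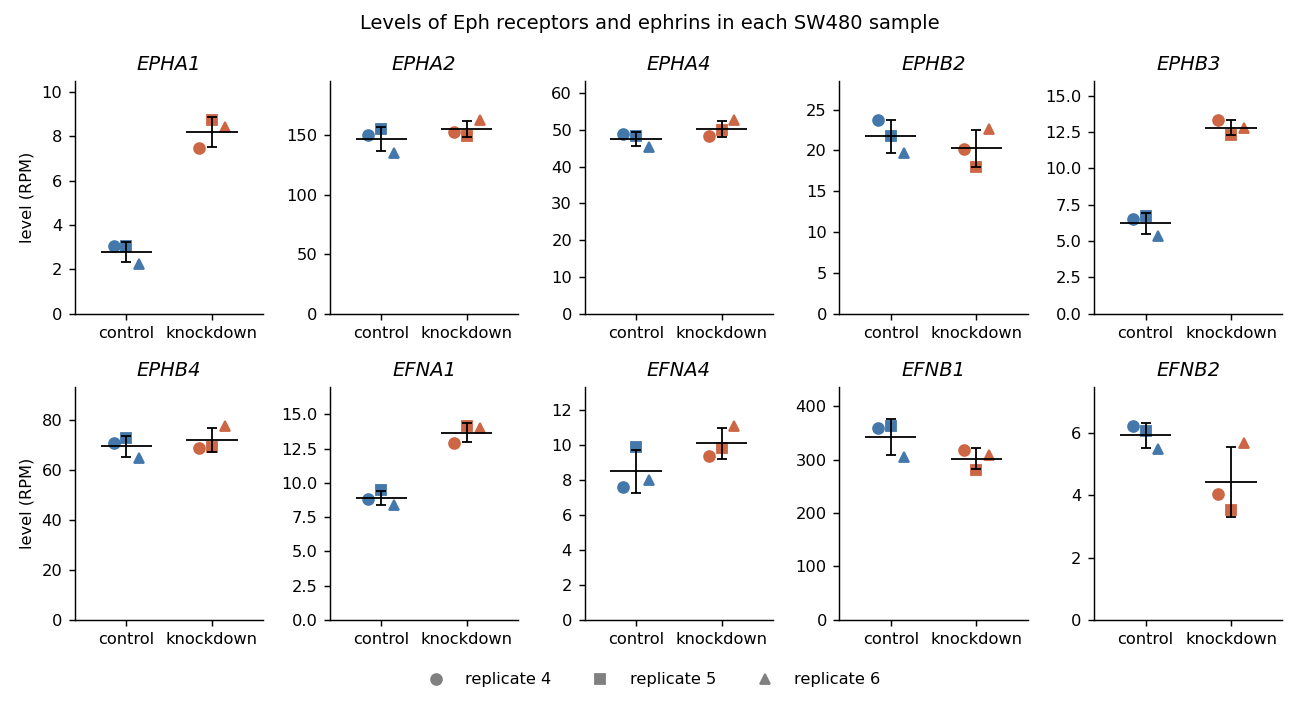
Level in RPM (y axis, from 0) of each of the 10 genes in the 3 control and 3 knockdown samples; points are samples, the wide line is the group mean and the bar its SD. EPHA1, EPHB3 and EFNA1 have groups that do not overlap, whereas the EFNB2 level of knockdown replicate 6 lies within the control range.

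The promoters of EPHA1 and EPHB3, which rose, of EPHB2, the closest crypt relative of EPHB3, and of EFNB2, which fell, are shown so that their sequence can be set beside these opposite results. Each runs 5′ to 3′ on the gene's strand, from 250 bases before to 50 bases after a RefSeq gene start (RefSeq, GRCh38.p14), with capitals for a GC box (GGGCGG) or an E-box of the kind bound by Snail-type repressors (CAGGTG), on either strand.
EPHA1 promoter (chr7:143408807-143409106, minus strand): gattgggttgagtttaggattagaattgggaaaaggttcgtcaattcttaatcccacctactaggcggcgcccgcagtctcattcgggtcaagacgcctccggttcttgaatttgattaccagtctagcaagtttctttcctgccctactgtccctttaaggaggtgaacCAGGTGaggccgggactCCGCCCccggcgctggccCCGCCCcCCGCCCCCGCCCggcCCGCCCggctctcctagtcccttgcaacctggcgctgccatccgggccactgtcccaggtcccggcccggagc
EPHB3 promoter (chr3:184561535-184561834, plus strand): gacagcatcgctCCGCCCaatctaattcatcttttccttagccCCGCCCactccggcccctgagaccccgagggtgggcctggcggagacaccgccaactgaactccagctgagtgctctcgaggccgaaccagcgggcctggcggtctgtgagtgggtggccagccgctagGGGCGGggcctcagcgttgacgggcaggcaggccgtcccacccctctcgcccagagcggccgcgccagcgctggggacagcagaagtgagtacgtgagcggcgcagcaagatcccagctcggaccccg
EPHB2 promoter (chr1:22710588-22710887, plus strand): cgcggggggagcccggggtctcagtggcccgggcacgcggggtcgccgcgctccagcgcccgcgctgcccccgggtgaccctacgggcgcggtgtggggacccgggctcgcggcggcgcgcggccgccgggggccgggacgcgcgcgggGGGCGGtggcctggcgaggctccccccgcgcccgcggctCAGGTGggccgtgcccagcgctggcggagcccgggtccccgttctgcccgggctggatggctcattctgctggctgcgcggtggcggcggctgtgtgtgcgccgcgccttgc
EFNB2 promoter (chr13:106535613-106535912, minus strand): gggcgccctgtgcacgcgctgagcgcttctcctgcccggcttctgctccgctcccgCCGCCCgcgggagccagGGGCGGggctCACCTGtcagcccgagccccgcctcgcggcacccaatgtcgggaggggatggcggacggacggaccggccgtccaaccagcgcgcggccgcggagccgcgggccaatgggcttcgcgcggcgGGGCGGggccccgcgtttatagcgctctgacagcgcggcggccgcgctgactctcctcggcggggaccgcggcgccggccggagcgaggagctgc

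The EPHA1 window held 5 GC boxes and 1 E-box, EPHB3 3 and 0, EPHB2 1 and 1, and EFNB2 3 and 1. The window of EFNA1, which also rose and is not printed, held 5 GC boxes and 0 E-boxes. GC boxes were found in 44.6% and this E-box in 20.6% of 27305 promoters of the same length, one per symbol. The TCF core CTTTGAT or CTTTGAA, searched on both strands, was in none of the 10 members' windows and in 6.98% of all windows. GC content of the printed windows ran from 62.0% (EPHA1) to 83.0% (EPHB2), with a median of 58.3% over all windows. A match is a run of letters, not a shown binding site.

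Among A-class receptors, EPHA1 rose about 3-fold while EPHA2 and EPHA4 stayed within a narrow range. EPHA1, the founding Eph receptor and one found on epithelial cells (chromosome 7, 143087382 to 143105986, as the deposited table places it in an unnamed build), had 3.04, 3.04 and 2.25 RPM in control replicates 4, 5 and 6 and 7.46, 8.74 and 8.41 RPM in the knockdown. Every knockdown sample was above every control sample. The group means were 2.78 ± 0.455 and 8.20 ± 0.668 RPM (SD, n = 3 each), resting on 53 to 87 reads per control and 157 to 220 per knockdown sample. By limma EPHA1 rose by 1.57 on the log2 scale (SE 0.157, adjusted p = 2.22e-08), which is 2.98-fold with a 95% interval of 2.38 to 3.73. This rise ranked 199 of 15475 by log2 fold change.

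EPHA2, a receptor often abundant in carcinoma cells and active without ligand (chromosome 1, 16450832 to 16482583), had 150.1, 155 and 135 RPM in control replicates 4, 5 and 6 and 153, 149.7 and 163 RPM in the knockdown. The groups overlapped, and control replicate 6 was the low sample. Its log2 fold change of 0.08 (limma adjusted p = 0.411) had a 95% interval of -0.08 to 0.24, which is -5.09% to 17.9%. It passed when totals without mitochondrial genes (0.13, adjusted p = 0.0255) or quantile normalization (0.19, adjusted p = 0.00236) set the scale. EPHA4, a receptor that binds ephrins of both classes (chromosome 2, 222282747 to 222438923), had 49.0, 48.3 and 45.2 RPM in the control and 48.3, 49.8 and 52.7 RPM in the knockdown. Its groups overlapped too, with a log2 fold change of 0.08 (95% interval -0.08 to 0.25, limma adjusted p = 0.429).

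The crypt receptors EPHB2 and EPHB3 parted. EPHB3 (chromosome 3, 184279572 to 184300198) had 6.54, 6.73 and 5.35 RPM in control replicates 4, 5 and 6 and 13.3, 12.3 and 12.8 RPM in the knockdown. All knockdown samples lay well above all control samples, and the means were 6.21 ± 0.748 and 12.8 ± 0.532 RPM (SD, n = 3 each). By limma the rise was 1.05 on the log2 scale (SE 0.123, adjusted p = 2.64e-07), or 2.07-fold with a 95% interval of 1.74 to 2.47, from 126 to 334 reads per sample.

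EPHB2 (chromosome 1, 23037332 to 23241819) had 23.8, 21.7 and 19.7 RPM in the control and 20.1, 18.0 and 22.6 RPM in the knockdown. The samples of the groups were interleaved. Its log2 fold change was -0.10 (95% interval -0.31 to 0.11, limma adjusted p = 0.448). The log2 ratio of EPHB3 to EPHB2 within a sample, compared after the values were seen, was -1.86, -1.69 and -1.88 in the control and -0.59, -0.55 and -0.83 in the knockdown. The ratio was higher in all 3 knockdown samples, by 1.15 on the log2 scale, and an exact two-sided permutation test returned p = 0.1, the lowest possible with 3 against 3 (adjusted p = 0.1 over 5 comparisons added in this way).

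EPHB4, the partner of ephrin-B2 in vessels and also made in colon epithelium (chromosome 7, 100400187 to 100425122), had 70.8, 72.8 and 64.6 RPM in the control and 68.8, 69.4 and 77.6 RPM in the knockdown. Control replicate 6 was lowest and knockdown replicate 6 highest, and the rest lay together. Its log2 fold change of 0.05 had a 95% interval of -0.11 to 0.22 (limma adjusted p = 0.638).

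Of the A-class ligands, EFNA1 rose and EFNA4 did not pass. EFNA1, the main ligand of EphA2 in epithelia (chromosome 1, 155099936 to 155107334), had 8.85, 9.44 and 8.37 RPM in control replicates 4, 5 and 6 and 12.9, 14.1 and 14.0 RPM in the knockdown. The lowest knockdown sample was above the highest control sample. By limma EFNA1 rose by 0.62 on the log2 scale (SE 0.1105, adjusted p = 7.55e-05), which is 1.54-fold with a 95% interval of 1.31 to 1.80.

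EFNA4 (chromosome 1, 155036207 to 155042030) had 7.61, 9.90 and 7.99 RPM in the control and 9.33, 9.82 and 11.1 RPM in the knockdown. Control replicate 5 reached into the knockdown range. The log2 fold change was 0.25 (95% interval -0.01 to 0.51, limma adjusted p = 0.112), and it passed without control replicate 5 (0.37, adjusted p = 0.0371) and with non-mitochondrial totals (0.30, adjusted p = 0.0334). In the table EFNA4 lies almost within EFNA3 on the same strand, so reads of either gene may have been split or shared, and both values are uncertain.

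Of the 4 ephrins among the members, EFNB1 had the highest and EFNB2 the lowest mean level per kb of transcript in the control. EFNB1, which binds EphB2 and EphB3 (chromosome X, 68048840 to 68061991), had 360.0, 364 and 305 RPM in the control and 318, 280.45 and 308 RPM in the knockdown. Control replicate 6 lay among the knockdown samples, and the log2 fold change was -0.18 (95% interval -0.35 to -0.01, limma adjusted p = 0.0781). Without control replicate 6 it was -0.26 and passed (adjusted p = 0.00443), and it also passed under scaling by median of ratios (-0.18, adjusted p = 0.0108). Of the RPM per kb of transcript summed over the 8 ephrin genes in the table, the share of EFNB1 was 85.5% ± 0.509 in control samples and 79.2% ± 1.53 in knockdown samples (SD, n = 3 each). These shares use the longest coding transcript in GENCODE 29, and with the median coding transcript length they were 84.2% and 77.7%. For receptors the order depended on that length: EPHA2 led with the longest transcripts and EPHA4 with the median length. For EPHA4 the median was 600.5 nt, against 6346 nt for the longest, so its lead rests on short annotated transcripts. Before division by length the control means were 147 RPM for EPHA2 and 47.5 RPM for EPHA4.

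EFNB2, a ligand of EphB4 and EphA4 (chromosome 13, 107142079 to 107187463), had 6.23, 6.07 and 5.48 RPM in control replicates 4, 5 and 6 and 4.04, 3.54 and 5.69 RPM in the knockdown. Knockdown replicates 4 and 5 were below all controls, but replicate 6 was above control replicate 6. By limma EFNB2 fell by 0.45 on the log2 scale (SE 0.164, adjusted p = 0.0297, 95% interval -0.79 to -0.11), from 72 to 178 reads per sample. This was the weakest of the 4 calls. Without control replicate 4 or 5, or knockdown replicate 4 or 5, the adjusted p was 0.0704, 0.0703, 0.0919 and 0.198, while without knockdown replicate 6 the log2 fold change was -0.65.

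**Figure D2:**
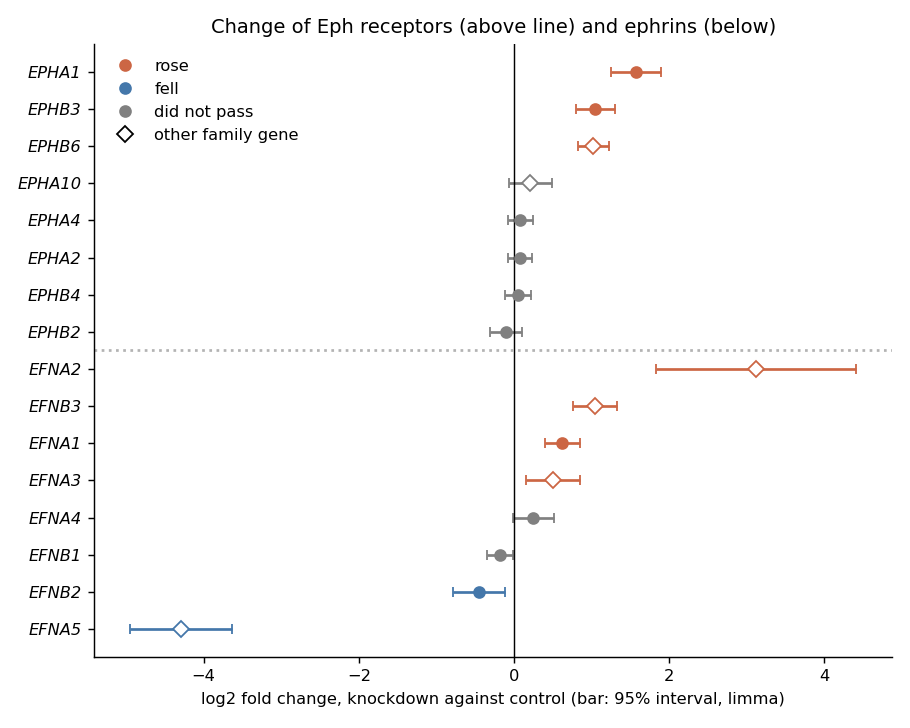
Log2 fold change, knockdown against control (x axis), of the 16 tested genes of both families, receptors above the dotted line and ephrins below; bars are 95% intervals from limma and open diamonds are family genes outside the 10 described. EPHA2, EPHA4, EPHB2 and EPHB4 lie close to 0, and the interval of EFNB2 is close to 0 at its upper end.

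The balance of a receptor to a ligand it is known to bind was compared within each sample, where scaling between samples cancels. Over 6 pairs, 5 had groups that did not overlap. Each of these 5 holds a called member, so the count largely restates those calls, and pairs that share a ligand are not independent. The share among other gene pairs was not computed, while single genes did not overlap in 51.1% of those tested. The log2 ratio of EPHB3 to EFNB1 was -5.78, -5.75 and -5.83 in control replicates 4, 5 and 6 and -4.58, -4.51 and -4.59 in the knockdown, a difference of 1.23. These 3 knockdown ratios were tightly grouped and far above the control ones. The ratio of EPHB2 to EFNB1 overlapped between groups, with a difference of 0.08 (exact permutation p = 0.6, adjusted p = 0.6).

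For EFNA1 the receptors differed in direction, EPHA2 to EFNA1 by -0.54 and EPHA1 to EFNA1 by 0.95. The EPHA2 ratio was 4.08, 4.04 and 4.02 in the control and 3.57, 3.40 and 3.54 in the knockdown. EPHA4 to EFNB2 and EPHB4 to EFNB2 were higher by 0.53 and 0.50. Both pairs share EFNB2 and were least apart in knockdown replicate 6, with ratios of 3.21 and 3.77 against highest control ratios of 3.04 and 3.58. For the 5 pairs without overlap each exact two-sided permutation p was 0.1, the least this design can reach, and 0.12 after adjustment over the 6 pairs, so none passed.

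**Figure D3:**
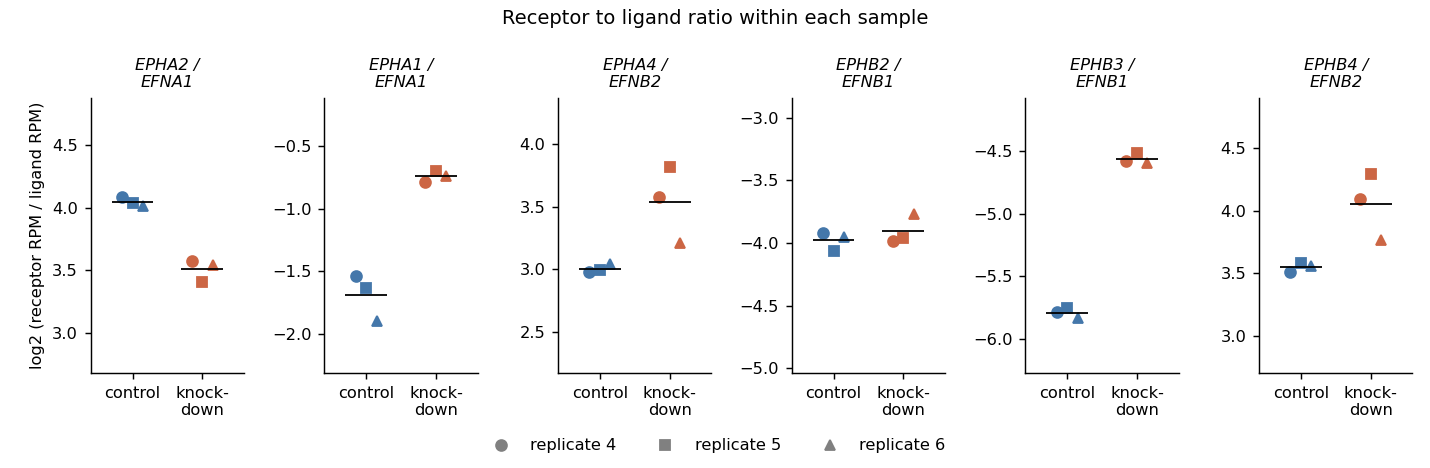
Log2 of receptor RPM over ligand RPM (y axis) in each control and knockdown sample, for 6 pairs known to bind; points are samples, lines are group means and every panel spans the same number of log2 units. The groups overlap only for EPHB2 over EFNB1, and EPHB3 over EFNB1 shows the widest gap.

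The position of a member on its chromosome was also read, because genes near some members moved together. Tested genes within 5 Mb on each side of EPHA1 had a median log2 fold change of 0.47, and of these 47 genes 33 rose and 0 fell. EPHA1 had a higher log2 fold change than all 47. With 2 Mb on each side 0 of 26 neighbours were above it, and with 10 Mb 2 of 112, of which 84 rose. The log2 level of EPHA1 relative to the median of the 47 neighbours was -2.59, -2.57 and -2.83 in the control and -1.67, -1.32 and -1.49 in the knockdown, higher by 1.17. The part of the shared shift of neighbours in the rise of EPHA1 was not tested.

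EFNB2 went the other way from its neighbours. Of 19 tested genes within 5 Mb of it, 18 rose, 0 fell and 1 (the pseudogene PARP1P1) did not pass, with a median log2 fold change of 0.64. ARGLU1, the nearest by gene start, rose from 56.7 to 118 RPM (log2 fold change 1.06, SE 0.0853, limma adjusted p = 5.11e-10). LIG4, the ligase of DNA end joining, rose by 0.65, and IRS2, an adaptor of insulin receptors, by 0.70. Relative to the median of these neighbours, EFNB2 was at -1.69, -1.77 and -1.82 in the control and -2.80, -3.06 and -2.39 in the knockdown, so the groups did not overlap on this scale and differed by -0.99. With 2 Mb on each side 3 of 3 neighbours rose, and with 10 Mb 48 of 58 rose and 1 fell.

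EPHB3 lay among genes that tended to be lower, with 6 of 66 neighbours that rose, 26 that fell and a median of -0.17. EPHB3 was higher by 1.31 relative to that median. Of the 66 neighbours, 3 had a higher log2 fold change than EPHB3. Among them were CHRD (1.63) and VWA5B2 (1.67), with gene starts at -0.18 and -0.33 Mb from that of EPHB3. Around EFNA1 the median of 170 neighbours was -0.02, with 37 that rose and 42 that fell. The levels of EPHA1, EFNB2 and EPHB3 relative to neighbours were compared after the values were seen, and each gave an exact permutation p of 0.1 (0.1 after adjustment over 5). Around the other 6 members the median lay between -0.07 (EPHA4) and 0.10 (EPHB4).

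**Figure D4:**
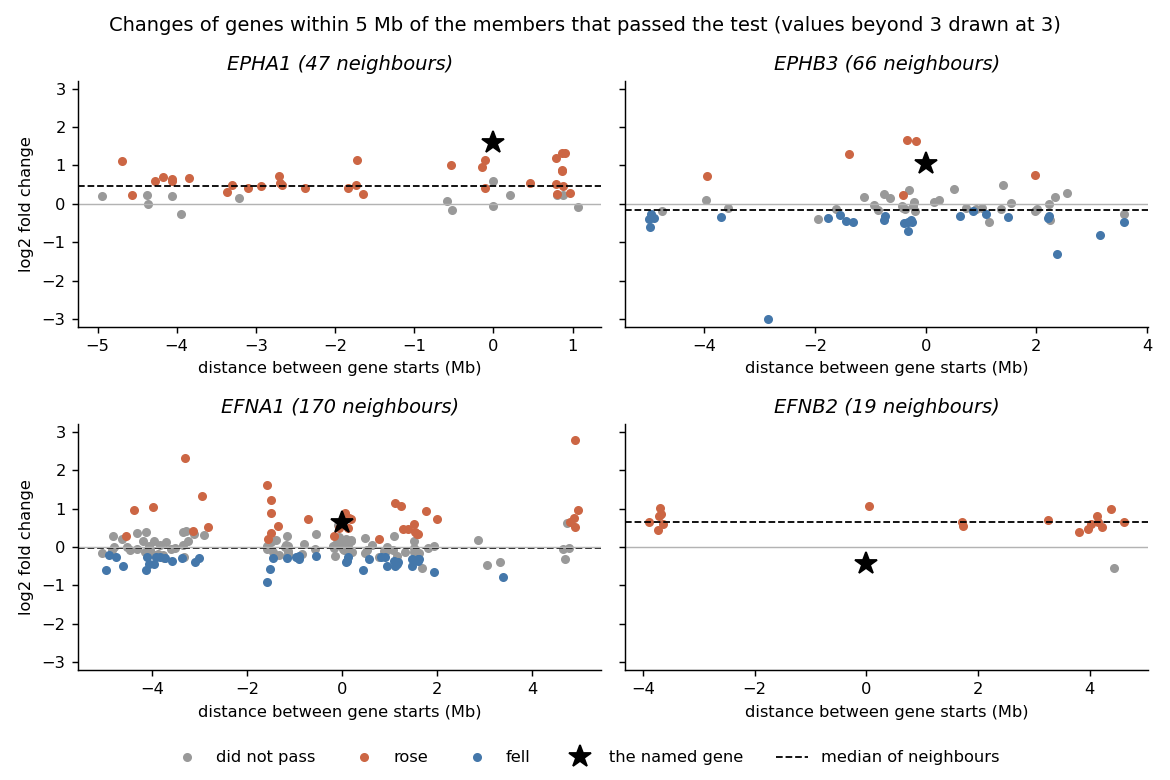
Log2 fold change, knockdown against control (y axis), of tested genes within 5 Mb of EPHA1, EPHB3, EFNA1 and EFNB2, by distance between gene starts in Mb (x axis); the star is the named gene the dashed line is the median of its neighbours, and values beyond 3 are drawn at 3. EFNB2 lies below 18 neighbours that rose, and EPHA1 lies above all 47 of its neighbours.

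Beyond the 10 members, 8 of 12 other family genes were matched by symbol, and 6 passed the filter. Of these, EPHB6, EFNB3, EFNA3 and EFNA2 rose, EFNA5 fell and EPHA10, whose kinase domain is inactive, did not pass (log2 fold change 0.21, limma adjusted p = 0.214). The 5 called are 83.3% of 6, against 41.9% of all genes, but EFNA2 passed the filter through the knockdown group and EFNA5 through the control group, so this share is no support for the family. EPHA8 and EPHB1 were under 0.6 RPM in every sample.

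EFNA5, a repulsive guidance ligand in the developing brain (chromosome 5, 106712590 to 107006597), had 4.58, 5.98 and 4.76 RPM in control replicates 4, 5 and 6 and 0.332, 0.344 and 0.153 RPM in the knockdown. The knockdown samples held only 7, 7 and 4 reads, against 112 to 131 reads in control samples. The knockdown mean was 5.41% of the control mean. By limma its log2 fold change was -4.29 (SE 0.319, adjusted p = 1.24e-10), the fourth lowest of all genes tested, and -2.25 with an offset of 1 RPM. Of 22 tested neighbours, 9 fell and 1 rose, with a median of -0.22, and all 22 had a higher log2 fold change than EFNA5.

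EPHB6, a receptor whose kinase domain is inactive (chromosome 7, 142552792 to 142568848), had 31.4, 35.0 and 25.6 RPM in the control and 61.1, 57.8 and 66.8 RPM in the knockdown. The groups were far apart, with a log2 fold change of 1.02 (SE 0.0980, limma adjusted p = 1.04e-08). The symbol EPHB6 is listed at 2 loci with identical values, and the position given is 1 of them. From that position EPHB6 lies within 5 Mb of EPHA1, so the neighbours are largely shared. Of 48 neighbours 34 rose, with a median of 0.47, and 7 had a higher log2 fold change than EPHB6. Relative to the neighbours EPHB6 was higher by 0.62.

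EFNB3, the third transmembrane ephrin (chromosome 17, 7608520 to 7614697), had 6.72, 6.40 and 4.76 RPM in the control and 11.3, 11.4 and 14.0 RPM in the knockdown. Knockdown samples were all above control samples, with a log2 fold change of 1.05 (SE 0.138, limma adjusted p = 1.55e-06), while its 152 neighbours had a median of -0.05. EFNB3 and EFNB2, both B-class ligands, thus passed the test in opposite directions. EFNA3 rose by 0.51 (limma adjusted p = 0.0174), a call lost under quantile normalization and without control replicate 6, knockdown replicate 4 or knockdown replicate 5 (in that order, adjusted p = 0.0972, 0.0769, 0.0633 and 0.0718). EFNA2 rose from 14, 3 and 1 reads in control replicates 4, 5 and 6 to 24, 24 and 38 reads in the knockdown. At so few reads its log2 fold change moved from 3.12 to 0.90 when the offset was raised to 1 RPM.

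**Figure D5:**
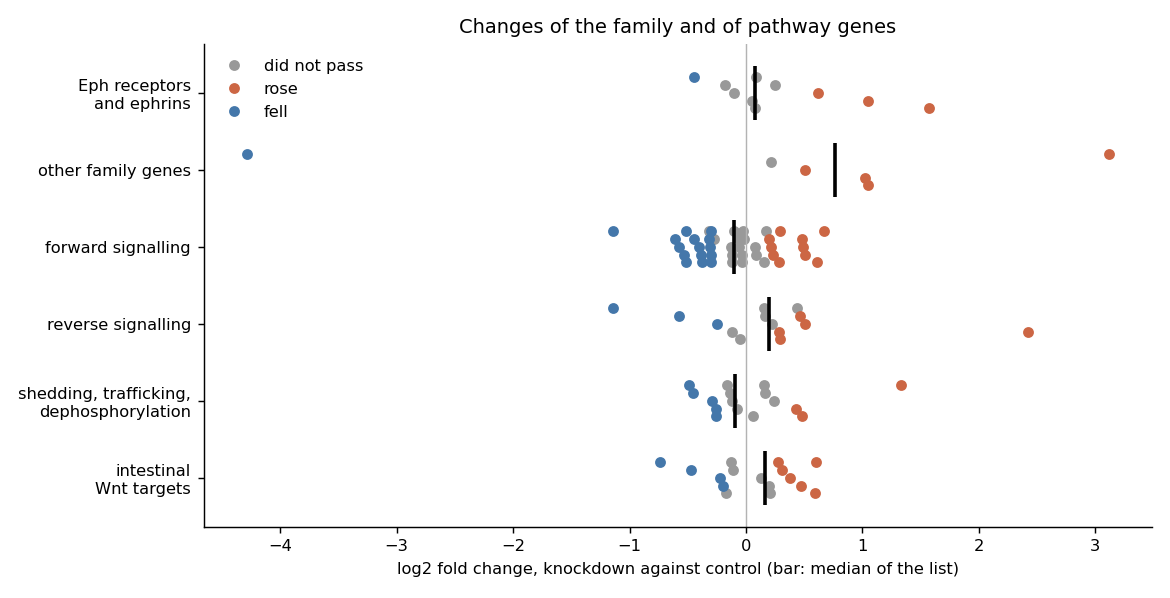
Log2 fold change, knockdown against control (x axis), of each tested gene of 6 lists, coloured by whether it rose, fell or did not pass; the black bar is the median of the list. Most genes of the signalling lists lie between -1 and 1, and TIAM1 at -1.14 and GRIP2 at 2.43 lie outside that range.

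Among 45 genes of forward signalling below Eph receptors, 41 were tested, of which 10 rose, 15 fell and 16 did not pass (61.0% called, against 41.9% of all genes). The median log2 fold change was -0.10. TIAM1, an exchange factor that activates Rac and binds EphA2 and ephrin-B, had 61.4, 63.0 and 57.4 RPM in the control and 26.5, 28.1 and 27.8 RPM in the knockdown. Its 3 knockdown values were tightly grouped at less than 50% of control, with a log2 fold change of -1.14 (SE 0.0818, limma adjusted p = 6.79e-11), although 29 of its 50 neighbours rose.

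The kinases FYN and ABL2, which act below Eph receptors, fell by 0.58 and 0.61 on the log2 scale. The phosphatase PTPN11 fell by 0.51 and the Rac inactivator CHN1, which acts below EphA4, by 0.53. SH2D3A, an adaptor with an SH2 domain, rose by 0.67. By limma the adjusted p of these 5 genes ran from 1.54e-06 (SH2D3A) to 8.81e-05 (CHN1), and in each the groups did not overlap.

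Of 15 genes of reverse signalling through ephrins, 14 were tested, with 5 that rose, 3 that fell and a median of 0.20 (57.1% called, against 41.9% of all genes). TIAM1, FYN, NCK2 and SRC are in both signalling lists. The scaffold GRIP2, with PDZ domains that bind ephrin-B tails, rose by 2.43, from 1.96, 1.42 and 1.19 RPM in the control to 7.51, 7.37 and 9.29 RPM in the knockdown. Of 69 neighbours of GRIP2, 60 rose, with a median of 0.69. The adaptor NCK2, which binds phosphorylated ephrin-B, rose by 0.50, and its 47 neighbours had a median of 0.52. The polarity protein PARD6B, which ephrin-B1 is known to bind competitively, rose by 0.47 with a neighbour median of -0.09, and the kinase SRC rose by 0.28.

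Of 20 genes for shedding, trafficking and dephosphorylation of Eph proteins and ephrins, 16 were tested, with 3 that rose, 5 that fell and a median of -0.10 (8 of 16 called, against 41.9% of all genes). The membrane protease MMP14, which cleaves EphA2, fell by 0.45, the phosphatase PTPN1 by 0.49 and the ubiquitin ligase CBL by 0.29. ADAM10, which sheds ephrins and cuts E-cadherin at EphB contacts, fell from 65.4 ± 5.24 to 54.7 ± 1.11 RPM (SD, n = 3 each, log2 fold change -0.25, limma adjusted p = 0.0132). ADAM17, of the same list, did not pass (log2 fold change 0.16, limma adjusted p = 0.145). Its means were 39.0 RPM in the control and 43.4 RPM in the knockdown, with groups that did not overlap. The low molecular weight phosphatase ACP1 rose by 0.43 and the endosomal RAB5A by 0.48, next to neighbour medians of 0.47 and 0.59. MMP9, a secreted protease, rose by 1.33 from a mean of 0.43 RPM (10 to 11 reads per control sample) to 1.08 RPM. It passed the filter only through the knockdown group, so its call adds nothing to the count of 3, and its log2 fold change was 0.54 with an offset of 1 RPM. E-cadherin, CDH1, through which EphB receptors are known to sort epithelial cells, rose in the same samples (log2 fold change 1.98, limma adjusted p = 4.13e-12).

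Other intestinal Wnt targets did not share 1 direction. Of 16 tested among 19, 6 rose, 4 fell and 6 did not pass, with a median of 0.16 (62.5% called, against 41.9% of all genes, of which 22.7% rose and 19.2% fell). RNF43 and NOTUM, both inhibitors of Wnt signalling, rose by 0.47 and 0.60, TNFRSF19 by 0.59 and the cyclin CCND1 by 0.38. LEF1, a factor that binds beta-catenin, fell by 0.74 and MYC by 0.47. AXIN2 fell by 0.22 (limma adjusted p = 0.0336), with groups that overlapped. Of 108 neighbours of NOTUM 45 rose and 8 fell, with a median of 0.22. Of 59 neighbours of RNF43 18 rose and 4 fell, with a median of 0.10. The stem cell factor ASCL2 had a log2 fold change of -0.13 (limma adjusted p = 0.189). LGR5 and SMOC2, of the same list, did not pass the filter. Over the control samples LGR5 had 15 reads and SMOC2 11, and over the knockdown samples 0 and 3.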

How the data were processed

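The deposited table gives, per gene and sample, a log2 value that the authors normalized; its scale, log2 of RPM plus an offset of 1e-04, was read from the values. Per the submitters' processing notes Partek and Bowtie were used with build hg38, without versions; the positions are not those of GRCh38 and are given as in the table. The sources used here do not give the counting, gene models or filters. The labels describe strand-specific libraries, but not whether counting used strand. The value of 1 read, and from it the depth, was taken from the commonest low values; 73.8% to 74.6% of low values came within 0.02 of whole reads, so count models were not run.

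Symbols at several loci, with identical values, were used once. limma (R 4.3.3, limma 3.58.1) was fitted to 15475 genes with lmFit and eBayes with a trend, without covariates, as a two-sided test whose p-values were adjusted by Benjamini-Hochberg over every gene tested (threshold 0.05), after a test on simulated data. Rose and fell are used only of genes past it. Ratios were compared with exact permutation tests. Older symbols matched 1 list gene. Read counts are rounded RPM over the value of 1 read, and intervals from limma cover the spread between samples. Figures used matplotlib 3.10.9 (Python 3.11.15). Alternatives changed the offset, filter, scaling, variance prior, block and samples.

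The members and lists were chosen with earlier results of these data known. The rule names all members, tested family genes, up to 6 called genes per pathway list with the smallest p, ALDH1B1 and CDH1. ADAM10, ADAM17, ASCL2, AXIN2, LGR5, SMOC2, EPHA8, EPHB1 and the neighbours named were named after their values were seen. So were the markers VIL1, EPCAM, CDX2, SYP, TUBB3, MAP2, KRT8, KRT18, KRT19, KRT20, GPA33, LGALS4, CD68 and HLA-DRA.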

Additional observations from a re-analysis of the deposited data

How the results depend on the processing

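EPHA1, EPHB3 and EFNA1 kept their direction and passed under all 16 alternatives, with log2 fold changes of 1.29 to 1.65, 0.93 to 1.11 and 0.52 to 0.67. EPHB2, EPHB4 and EPHA4 passed under none of them. EFNB2 passed under 10 of 16, so the number of members that fell was 0 without a filter and 0 without a variance trend (EFNB2 adjusted p = 0.0715 and 0.0909), and 2 under median of ratios, where EFNB1 joined it. With non-mitochondrial totals 5 members rose, EPHA2 and EFNA4 being added. With a minimum 5 times higher, EFNA5 and EFNA2 were not tested and 0 other family genes fell. Leaving out 1 sample at a time gave 3 to 4 members that rose, 0 to 2 that fell, 2905 to 3453 genes that rose and 2025 to 3735 that fell. With an offset of 1 RPM the EPHA1 to EFNA1 and EPHB3 to EFNB1 ratios differed by 0.72 and 1.12. No scaling moved the median of all genes by over 0.1. Among named pathway genes, CCND1 and CBL were lost without a variance trend (adjusted p = 0.0603 and 0.0615), CBL without control replicate 5 (0.0532) and SRC without knockdown replicate 6 (0.0745). The cause of these changes was not tested.

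Deviations from the group means, compared between same-numbered samples, had correlations of -0.05, -0.06 and -0.12, so no shared shift of same-numbered samples was seen. Whether such samples were prepared together cannot be read from this check. With the replicate number as a block, 3177 genes rose and 2302 fell, with 3 members that rose and 1 that fell, and the same 4 members were called. Depth limits EFNA2, EFNA5, EPHA8 and EPHB1, with at most 14 reads in at least 1 group's samples.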
